A study of Mus musculus with 11 samples.

Results

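The regions described here are the autosomal peaks of Xist RNA on mouse chromosome 9 that start at or beyond 3.1 Mb of the chromosome (genome build mm9), taken from every one of 6 deposited peak lists. They number 1918 of 19818 peaks in all: 797 and 761 in replicates 1 and 2 of day 2 (D2), 153 and 102 in replicates 1 and 2 of day 4 (D4), 84 in female fibroblasts and 21 in male fibroblasts. The chromosome was selected on its peak density at D2, the highest of the 19 autosomes, so that density is given as a description, with no test. The start bound set aside 4 male peaks in the first stretch of the assembly, between 3000470 and 3038107, with fold enrichments of 6.96, 10.4, 8.33 and 3.44. It set aside no peak of any female list, and the first male peak inside it began at 11232227 (fold enrichment 3.47).

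Xist is the long noncoding RNA that is made from the inactive X chromosome of female mammals and spreads over it, where it recruits the silencing factor SPEN and, by a separate route, Polycomb complexes. In the epiblast it is switched on when the pluripotent cells begin to differentiate. In female somatic cells it coats the inactive X, and male cells, with a single X, normally do not express it. A peak on an autosome therefore marks DNA recovered together with Xist away from the X, or background of the capture.

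The libraries come from RNA antisense purification (RAP-seq), in which crosslinked chromatin is captured with biotinylated probes against Xist and the DNA that comes along is sequenced. Female embryonic stem cells, held in LIF with the inhibitors CHIR99021 and PD0325901 (2i+LIF), were moved towards the epiblast with Activin A and bFGF, which gave epiblast-like cells (EpiLCs) at D2 and at D4 (n = 2 libraries each). Female and male mouse embryonic fibroblasts (MEFs), grown in serum, gave 1 library each, and no other agent was used. The labels give no strain, genotype or embryo age, and do not say whether replicates were separate cultures, so p-values measure only the spread between these libraries, part of which may be technical. Replicate 1 of both days re-analyses data deposited earlier. Each list holds broad peaks of 1 library, and the fold enrichment of a peak is the authors' value, a ratio on a linear scale. No male EpiLC library was analysed here, so the background of the capture in EpiLCs was not measured here. Sequencing depth is unknown for every library, and the number of peaks called grows with depth.

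At D2, chromosome 9 carried more peaks per length than any other autosome in both replicates. Replicate 1 held 6.59 peaks per Mb and replicate 2 held 6.29, counted over the 121.0 Mb from the start bound to the last peak of any list. The next densest autosomes were chromosome 19 in replicate 1 (5.65) and chromosome 11 in replicate 2 (4.58), and the median of the other 18 was 3.11 and 3.07. The peaks covered 9.18 and 6.71 Mb in replicates 1 and 2, which is 7.59% and 5.55% of the chromosome and also the highest share of any autosome. The order is close: with peaks less than 10 kb apart joined, replicate 1 had 3.70 regions per Mb on chromosome 9 and 3.80 on chromosome 19, while in replicate 2 chromosome 9 stayed first (3.78 against 3.40). Counting only peaks whose −log10 q reached 3, chromosome 9 was second to chromosome 6 in replicate 1 (17 peaks on chromosome 9) and first in replicate 2 (11 peaks).

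Outside D2 the chromosome was high but not first. Its density was 1.26 peaks per Mb in D4 replicate 1 (rank 2 of 19, after chromosome 4) and 0.843 in D4 replicate 2 (rank 4). In female MEFs it was 0.694 (rank 5) and in male MEFs 0.174 (rank 4). Chromosome 9 held 9.69% and 10.1% of all D2 peaks, 9.85% and 8.89% of all D4 peaks, 8.24% of female and 6.52% of male MEF peaks. The share of peaks on this chromosome thus overlapped between the days.

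**Figure D1:**
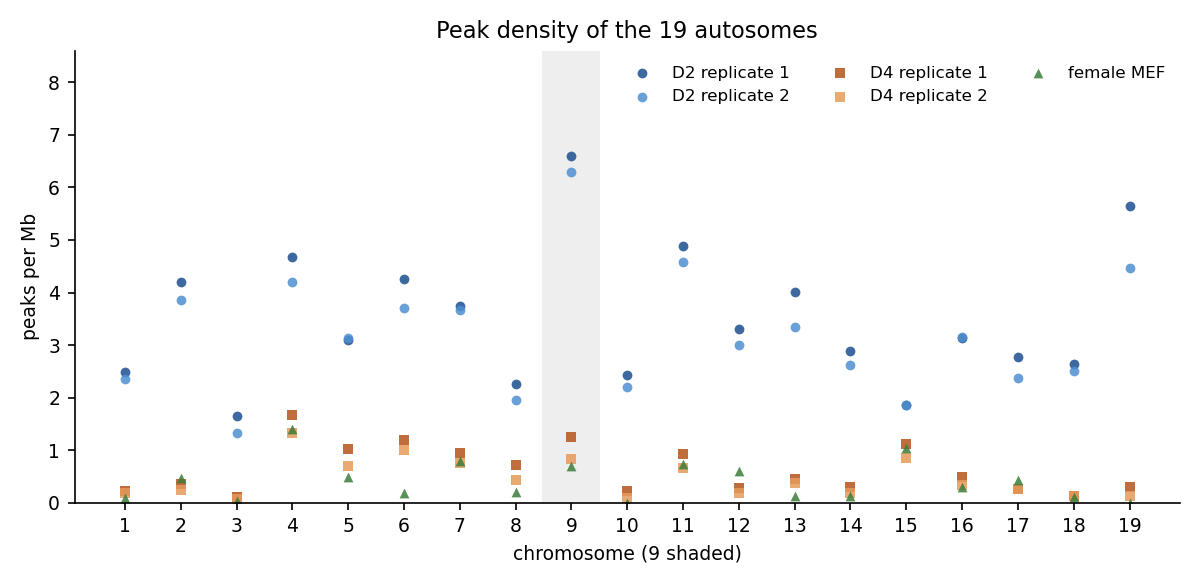
Peak density (peaks per Mb, y axis) of each of the 19 autosomes (x axis, chromosome 9 shaded) in the 4 EpiLC lists and in female MEFs, 1 point per library. Chromosome 9 has the highest D2 points, at 6.59 and 6.29, while its D4 and female MEF points, at 1.26, 0.843 and 0.694, lie below those of chromosome 4.

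Peaks were unevenly spread along the chromosome, and both D2 replicates showed the same layout. Of 122 blocks of 1 Mb, 61 held a peak in both D2 lists (over all autosomes 36.1% of blocks did), 7 in 1 D2 list only, and 54 in neither. In each D2 list 13 blocks held 50% of the peaks, and the 10 fullest held 42.0% and 43.9%. Windows set after the values were seen describe this layout. The 33 Mb from 40000001 to 73000000 held 510 and 495 of the D2 peaks (64.0% and 65.0%). The last 8 Mb, from 117000001 on, held 149 and 156 (18.7% and 20.5%). The 36.9 Mb nearest the centromere held 35 and 27, and the 21 Mb from 73000001 to 94000000 held 15 and 11. Peaks lay in groups within the full stretches, with a median gap to the nearest peak of 7.18 and 8.18 kb.

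Long stretches held no D2 peak at all. The longest ran for 12.2 Mb from 14769398 to 26995425, the next for 10.8 Mb from the start bound to 13944570, and the third for 9.76 Mb from 78463710 to 88222409. Neither D4 list nor the female MEF list called a peak in any of these 3 stretches. The male MEF list called 4, 1 and 1 peaks there.

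**Figure D2:**
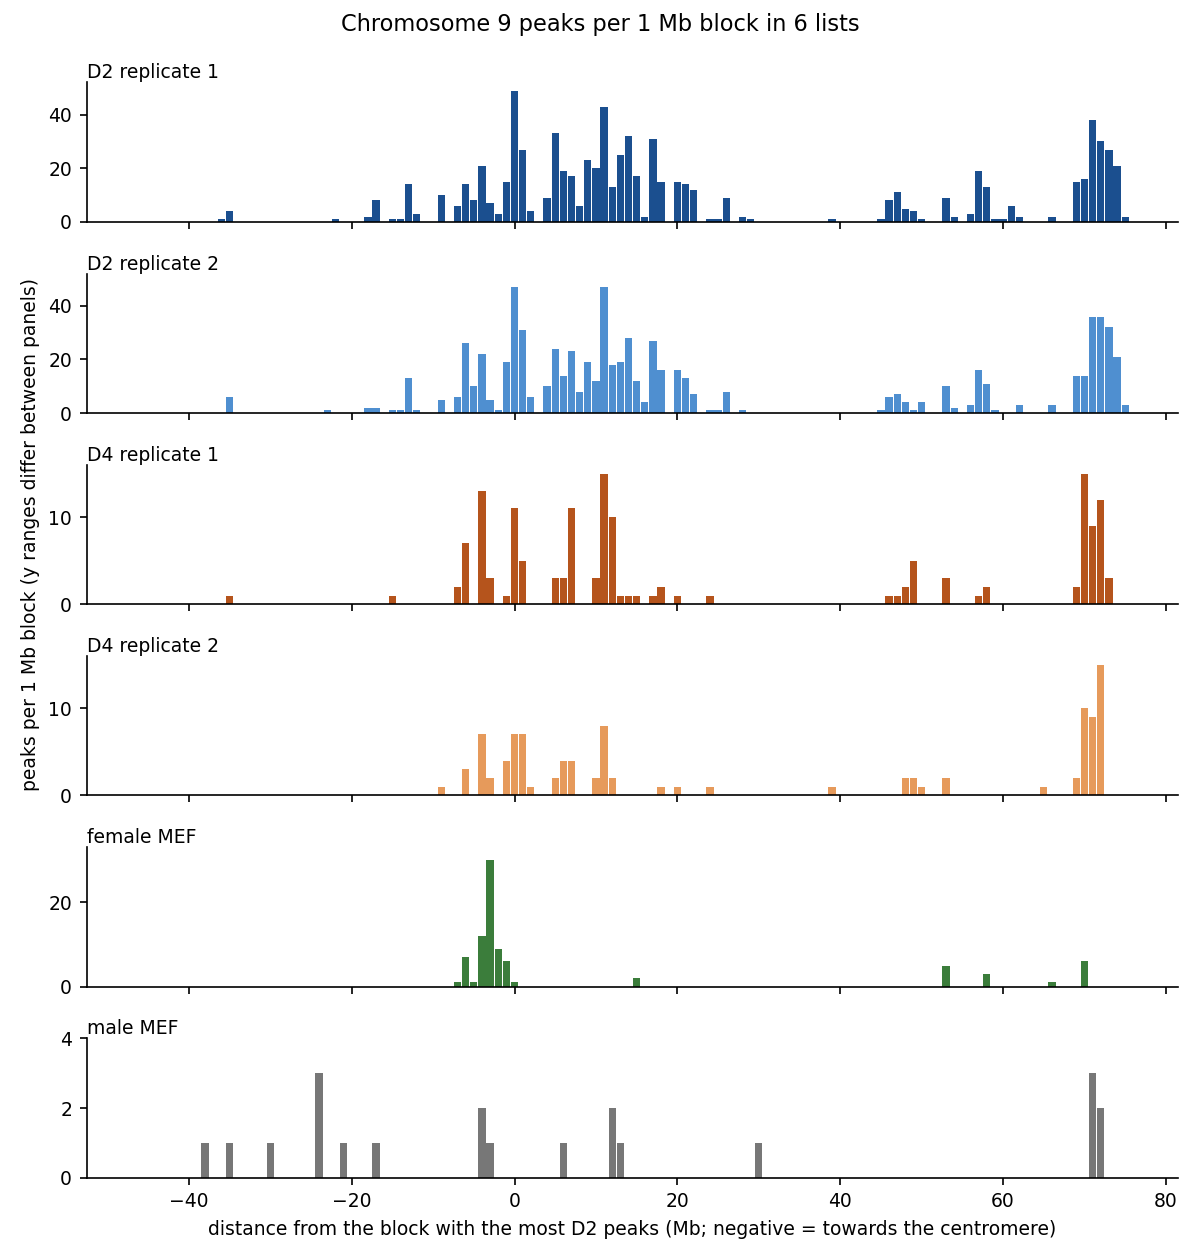
Number of peaks in each 1 Mb block of chromosome 9 (y axis, with a range of its own in each panel) against the distance in Mb from the block with the most D2 peaks (x axis, negative towards the centromere), 1 panel per list. Both D2 panels share a long full stretch, an almost empty one and a second full stretch at the far end; the female MEF peaks gather in a few blocks, of which the fullest, with 30 peaks, is low at D2 (7 and 5) and the second, with 12, is not (21 and 22).

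The fullest D2 block was 49000001 to 50000000, with 49 and 47 peaks in replicates 1 and 2 that covered 362.1 and 292.5 kb of it. The block from 60000001 to 61000000 followed with 43 and 47 peaks, over 563.2 and 383.6 kb. The blocks from 120000001 to 121000000 (38 and 36 peaks) and from 121000001 to 122000000 (30 and 36) were the third and the fourth, and the block from 63000001 to 64000000 (32 and 28) was the fifth. In these 5 blocks the replicates differed by at most 6 peaks. A block can be nearly covered by fewer, longer peaks: the one from 61000001 to 62000000 held 13 and 18 peaks that covered 844.0 and 763.1 kb. Which block comes first depends on the borders. With borders shifted by 500 kb, which was tried only after seeing the data, the fullest block began at 121500001 with a mean of 41.0 peaks, and with blocks of 2 Mb it began at 120000001 with 70.0.

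The D2 replicates were close in where along the chromosome the peaks lay and less so in the single peaks. Over the 122 blocks, peak counts of the replicates correlated with r = 0.968 (Spearman 0.956) and covered length with r = 0.988. These are descriptions across blocks, which share the library and the lie of the genome. Over the 68 blocks with a peak in at least 1 D2 list, the median difference between replicates was 2 peaks, and the largest was in the block from 43000001 to 44000000, with 14 against 26. Of the replicate 1 peaks, 418 of 797 (52.4%) overlapped a replicate 2 peak by at least 1 bp, where the share over all autosomes was 45.3%. Of the replicate 2 peaks, 513 of 761 (67.4%) overlapped replicate 1, where it was 59.3%. Among the 19 autosomes these shares were the highest and the second highest, after chromosome 4 (68.7%). These ranks are not independent of the choice of the chromosome, which was made on its D2 peak density. Measured as length covered in both replicates over length covered in either, agreement was 0.446, rank 4 of 19. Chromosome 15 was highest, at 0.564.

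Long peaks recurred and short ones often did not. Of the D2 peaks of 20 kb or longer, 92 of 96 in replicate 1 and 60 of 60 in replicate 2 overlapped the other replicate. Between 5 and 20 kb it was 65.8% of 272 peaks and 88.1% of 252. Between 1 and 5 kb it was 32.3% of 362 peaks and 48.3% of 352, and under 1 kb it was 44.8% of 67 and 62.9% of 97. The share was thus lowest between 1 and 5 kb and not in the shortest peaks. A longer peak has more room to overlap, so length and recurrence cannot be told apart here. Recurring peaks had a median length of 8180 bp in replicate 1 and 5962 bp in replicate 2, against 3043 and 2632 bp for the others. Their median fold enrichment was nearly the same, at 2.64 against 2.60 and 2.83 against 2.77. The shares by length and these medians were not computed for the other autosomes, so they describe this chromosome and do not set it apart.

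**Figure D3:**
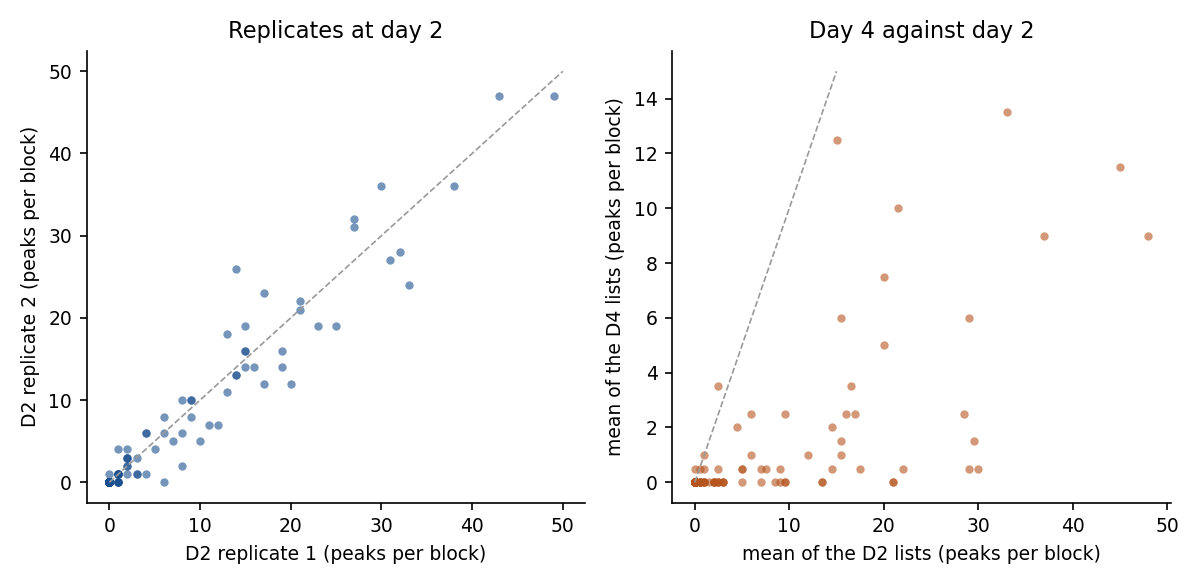
Peaks per 1 Mb block of chromosome 9, 1 point per block, with a dashed line where both axes are equal. Left, D2 replicate 2 against replicate 1 lies along the line, up to 49 and 47 peaks; right, the mean of the D4 lists (y axis) against the mean of the D2 lists (x axis) shows blocks of like D2 count with very different D4 counts.

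The segments covered in both D2 lists, called D2 consensus regions, numbered 569 over 4.90 Mb, with a median length of 3186 bp. Their number follows the threshold: 17 remained with only peaks at least 3-fold enriched, and 313 with neighbouring peaks joined. The strongest by mean rank of fold enrichment was short, at 95649962 to 95650710, with fold enrichments of 4.41 and 4.08 in D2 replicates 1 and 2 and 3.01 in D4 replicate 1. No other list called it. The second was a region of 25.8 kb at 55340198 to 55366029 (3.60 and 4.35 at D2), which both D4 lists called with 3.93 and 3.98. The third, at 54348885 to 54356640 (3.44 and 3.68), was likewise called in both D4 lists (3.71 and 3.35). The fourth and the fifth were sites of 232 and 201 bp at 56265473 to 56265704 (4.21 and 3.52) and 55785555 to 55785755 (3.99 and 3.38), called in no D4 or MEF list. Thus 4 of these 5 regions lay within the 3 blocks between 54000001 and 57000000. Their fold enrichments, at most 4.41 in any list, were modest.

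The longest D2 consensus regions were domains of over 100 kb with low fold enrichment. The longest, 328.3 kb at 61404243 to 61732554, had fold enrichments of 2.76 and 2.94 in D2 replicates 1 and 2. Smaller peaks overlapped it in both D4 lists (2.84 and 2.98), and a short male MEF peak also did (3.84). It was followed by 60913308 to 61088757 (175.4 kb), 50244374 to 50396359 (152.0 kb), 66488129 to 66633428 (145.3 kb) and 102555800 to 102685326 (129.5 kb). The regions at 50244374 and 102555800 overlapped peaks of both D4 lists, the one at 60913308 a peak of D4 replicate 1 alone, and the one at 66488129 no peak of D4 or MEFs.

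Peaks were both fewer and shorter at D4. The number per library was 779.0 ± 25.5 at D2 and 127.5 ± 36.1 at D4 (SD, n = 2 each). D2 thus had 6.11-fold as many peaks, with a ratio of 5.21 in replicate 1 and 7.46 in replicate 2. Because the D2 number chose the chromosome, it was not tested. The ratio depends on which peaks are counted: it was 3.45 for peaks at least 3-fold enriched, 4.04 with neighbouring peaks joined, and 7.0 for peaks whose −log10 q reached 3. Limiting each female list to its 1020 strongest autosomal peaks gave 1.10, but that setting makes the lists equally long, so it compares the chromosome's share of each list and not the number of peaks. Peaks covered 9.18 and 6.71 Mb in the D2 replicates against 0.526 and 0.296 Mb in the D4 replicates, which put the means 19.3-fold apart. Median peak length was 4209 and 3992 bp in the D2 replicates and 2426 and 2692 bp in the D4 replicates, so the days did not overlap. The difference of 1541 bp was larger than the spread between replicates, with SDs of 153.4 and 188.4 bp. Shorter D4 peaks were not particular to chromosome 9. On the other 18 autosomes the medians were 3900 and 3520 bp at D2 and 2917 and 2785.5 bp at D4. The two-sided exact permutation test gave p = 0.333, the smallest that 2 libraries against 2 allow. When only peaks whose −log10 q reached 3 were kept, of which D4 held 3 and 1, this difference turned to −223.0 bp.

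No D4 peak on the chromosome reached 50 kb, against 24 and 17 such peaks at D2. Such long peaks were not counted here on the other autosomes. The longest was 419.7 and 334.0 kb in the D2 replicates and 40.6 and 19.1 kb at D4. The chromosome's share of all called length was 11.9% and 12.1% at D2 and 6.53% and 5.37% at D4. Chromosome 6 holds much of the D4 length, and without it the shares were 12.9% and 13.2% against 8.63% and 7.82%. The fold between days was not extreme among autosomes: chromosome 9 ranked 12 of 19 in the ratio of D2 to D4 peaks and also in the ratio of covered length.

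Median fold enrichment over all peaks was 2.62 and 2.81 in the D2 replicates and 2.80 and 2.84 in the D4 replicates. D2 replicate 2 lay between the D4 values, so the days overlapped (difference −0.10, two-sided exact permutation p = 0.667). Among the few peaks whose −log10 q reached 3, the difference was −0.405, D4 being higher in both libraries (exact permutation p = 0.333, the smallest possible). In each list the median of the other 18 autosomes lay within 0.03 of that of chromosome 9.

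The blocks that were full at D2 differed widely in what was called at D4. Of 28 blocks with at least 10 peaks in both D2 lists, 17 held a peak in both D4 lists and 4 held none in either. These blocks were picked by their D2 counts. Equally full D2 blocks of other autosomes were not counted, so the values describe this chromosome and do not set it apart. The mean D4 count was between 0% and 83.3% of the mean D2 count, with a median of 11.7%. The D4 count came closest to the D2 count in the block from 119000001 to 120000000, with 16 and 14 peaks at D2 and 15 and 10 at D4. It was followed by 45000001 to 46000000 (21 and 22 peaks at D2, 13 and 7 at D4) and 121000001 to 122000000 (30 and 36 at D2, 12 and 15 at D4).

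Other blocks with as many D2 peaks were nearly empty at D4. The block from 123000001 to 124000000 had 21 peaks in each D2 list and 0 in both D4 lists, although the block from 121000001, near it, was among the fullest at D4. The same held from 58000001 to 59000000 (23 and 19 at D2, 0 at D4), from 36000001 to 37000000 (14 and 13) and from 70000001 to 71000000 (14 and 13). From 63000001 to 64000000 and from 66000001 to 67000000, the D2 lists had 27 to 32 peaks and the D4 lists 1 and 0. At these low D4 counts a block may be empty because few peaks were called in all.

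**Figure D4:**
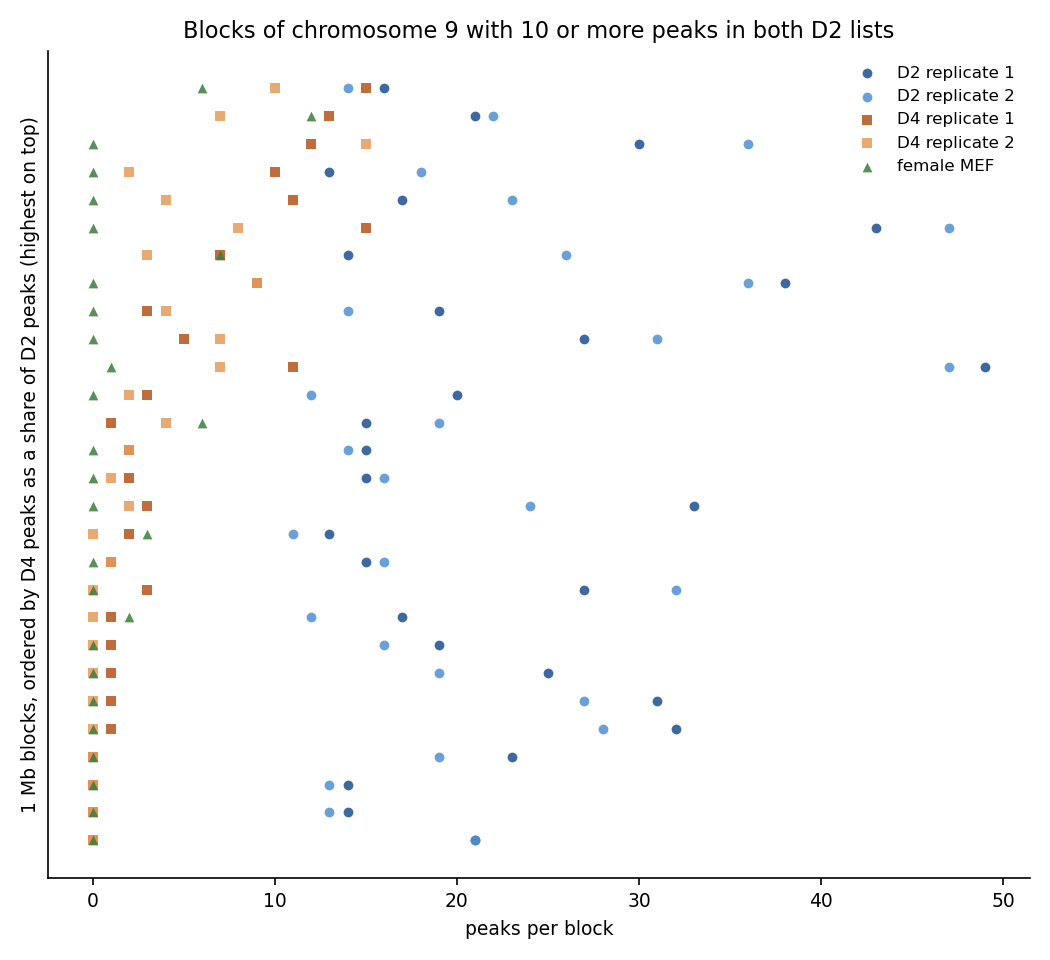
Peaks per block (x axis) in the 28 blocks of 1 Mb with at least 10 peaks in both D2 lists, 1 row per block, ordered by the D4 count as a share of the D2 count (highest on top); symbols stand for single libraries. The D4 symbols reach the D2 ones only in the top row (15 and 10 against 16 and 14) and are at 0 in both libraries in the lowest 4 rows.

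D4 peaks often overlapped a D2 peak by at least 1 bp, but not to the same extent in every block. Of the D4 peaks, 121 of 153 in replicate 1 (79.1%) and 79 of 102 in replicate 2 (77.5%) overlapped a D2 peak of either list, where the shares over all autosomes were 73.0% and 68.3%. In the block from 121000001 to 122000000, 11 of 12 and 15 of 15 D4 peaks lay on a D2 peak. In the block from 119000001, where the counts of the days were closest, 8 of 15 and 5 of 10 did, and 2 of its 6 D2 consensus regions overlapped a D4 peak. In the block from 56000001 to 57000000, 11 of 11 and 4 of 4 D4 peaks lay on a D2 peak, and 10 of 25 consensus regions overlapped a D4 peak. The D2 lists covered 519.3 and 368.7 kb of the block from 121000001 and 382.6 and 208.8 kb of that from 56000001. In the block from 119000001 they covered 154.0 and 144.4 kb. More D2 coverage leaves more room for overlap, so these counts do not set the blocks apart. Seen from D2, 94 of 569 consensus regions (16.5%) overlapped a D4 peak of either list, near the 15.6% over all autosomes. The share was 12.3% for D4 replicate 1 alone (12.2% over all autosomes) and 8.08% for D4 replicate 2 alone (7.72%). It was higher with stricter lists, at 29.4% of the 17 regions that were at least 3-fold enriched and 37.1% of the 35 regions in lists of equal number.

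D2 peaks that also overlapped a D4 peak were longer than the rest. Their median length was 12682 bp (102 peaks of D2 replicate 1) and 11256 bp (107 peaks of replicate 2), against 3884 and 3667 bp for the rest. Of D2 peaks of 20 kb or longer, 38 of 96 and 40 of 60 overlapped a D4 peak. Between 1 and 5 kb, 23 of 362 and 24 of 352 did. As above, a long peak has more room to overlap, and the same values were not computed for the other autosomes.

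The D4 replicates shared fewer of their peaks on chromosome 9 than on the other autosomes. Of the replicate 1 peaks, 19 of 153 (12.4%) overlapped replicate 2, where the share over all autosomes was 22.2%. Of the replicate 2 peaks, 21 of 102 (20.6%) overlapped replicate 1, against 32.6%. The Jaccard index (length covered in both replicates, divided by length covered in either) was 0.0772 at D4 and 0.446 at D2. On the other 18 autosomes it was 0.255 at D4 and 0.388 at D2, and without chromosome 6 it was 0.162 and 0.381. Counted over blocks, the D4 replicates still correlated with r = 0.875 (Spearman 0.738, n = 122 blocks). These differences between chromosomes were not tested, and D4 agreement was not compared with single autosomes.

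The regions covered in both D4 lists numbered 21 over 0.0588 Mb. Of these, 19 (90.5%) overlapped a D2 peak of either list, where the share over all autosomes was 83.3%, and 17 (81.0%) a D2 consensus region, where it was 68.9%. The strongest was at 55359667 to 55361245 (3.93 and 3.98 at D4), inside the second strongest D2 region. The next was a narrow site at 73304565 to 73305423, with 3.95 and 3.54 at D4 and 3.28 and 3.18 at D2. It stood nearly alone, since its block held 1 peak in each of the 4 EpiLC lists. The third was at 54349617 to 54349820 (3.71 and 3.35), inside the third strongest D2 region. The fourth and the fifth lay at 121538646 to 121557720 (2.99 and 3.33), which at 19.1 kb was also the longest, and at 121573413 to 121576693 (2.99 and 2.97). Each of these 5 was also called in both D2 lists. The fourth and the fifth carried the same values in D4 replicate 1 (2.99) and in D2 replicates 1 and 2 (2.86 and 3.20). They may thus be pieces of the same longer peaks and not separate sites. The other long regions covered in both D4 lists were at 121525562 to 121530845, 119449678 to 119454469 and 121408417 to 121412434.

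Only 2 D4 consensus regions had no D2 peak, and both lay close together in the block from 119000001. They were at 119404967 to 119406286 (2.62 and 2.84 in D4 replicates 1 and 2) and at 119449678 to 119454469 (2.69 and 2.76). The female MEF list called both, with 2.93 and 2.90, and it called no other of the 21 (9.52%, where the share over all autosomes was 30.1%). In the 49.5 kb from the first to the last of their bases, D4 replicates covered 15.9 and 12.8 kb, female MEFs covered 37.2 kb, and both D2 lists and the male MEF list covered 0 kb. The second lies inside the longest female MEF peak of the chromosome, 38.4 kb at 119420546 to 119458973.

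Joining the 4 EpiLC lists gave 1041 regions on chromosome 9. Of these, 279 were called in both D2 lists and in no D4 list, 26 in all 4 lists, and 2 in both D4 lists and in no D2 list. Most of the others were called once, 361 in D2 replicate 1, 237 in D2 replicate 2, 30 in D4 replicate 1 and 21 in D4 replicate 2. The same counts were not made over all autosomes. With D4 lists far shorter than the D2 lists, they describe the lists and show nothing particular to this chromosome.

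Female MEF peaks were more concentrated along the chromosome than those of EpiLCs. Of 122 blocks, 13 held a female MEF peak (10.7%, above the 7.34% over all autosomes). Each of these 13 also held a peak in both D2 lists, as did 61 of all 122 blocks. This joint count was not made over all autosomes. The 10 fullest blocks held 96.4% of the female MEF peaks, against 42.0% and 43.9% of the D2 peaks and 70.6% and 73.5% of the D4 peaks. The lists differ in size, and a shorter list can fill fewer blocks: the 21 male MEF peaks gave 81.0%. D4 replicate 2, nearest in size to the female MEF list with 102 peaks, gave the 73.5%. Moving a window of 2 Mb along the female MEF list found a stretch of 2.00 Mb from 45253802 to 47249541. It held 44 of 84 female MEF peaks, more than 50%. These peaks covered 376.8 kb (18.9% of the stretch), with a median length of 7230 bp and a highest fold enrichment of 3.45. In the same stretch the D2 lists held 20 and 18 peaks over 89.0 and 77.4 kb, the D4 lists 13 and 6 over 42.0 and 12.3 kb, and the male MEF list 2 over 1.81 kb. EpiLC peaks were thus present there, and made up 2.51% and 2.37% of the D2 peaks and 8.5% and 5.88% of the D4 peaks of the chromosome, against 52.4% of the female MEF peaks. The stretch spans 2.00 of the 121.0 Mb counted. Its 20 and 18 D2 peaks put it above the chromosome's 6.59 and 6.29 peaks per Mb. By covered length it lay below the chromosome at D2 (4.46% and 3.88% against 7.59% and 5.55%). At D4 it lay above the chromosome (2.10% and 0.616% against 0.435% and 0.244%). The fullest female MEF block, 46000001 to 47000000, held 30 peaks over 303.8 kb, where D2 replicates held 7 and 5 over 35.3 and 19.2 kb. The block before it, from 45000001 to 46000000, held 12 female MEF peaks and was also full in EpiLCs, with 21 and 22 peaks at D2 and 13 and 7 at D4.

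**Figure D5:**
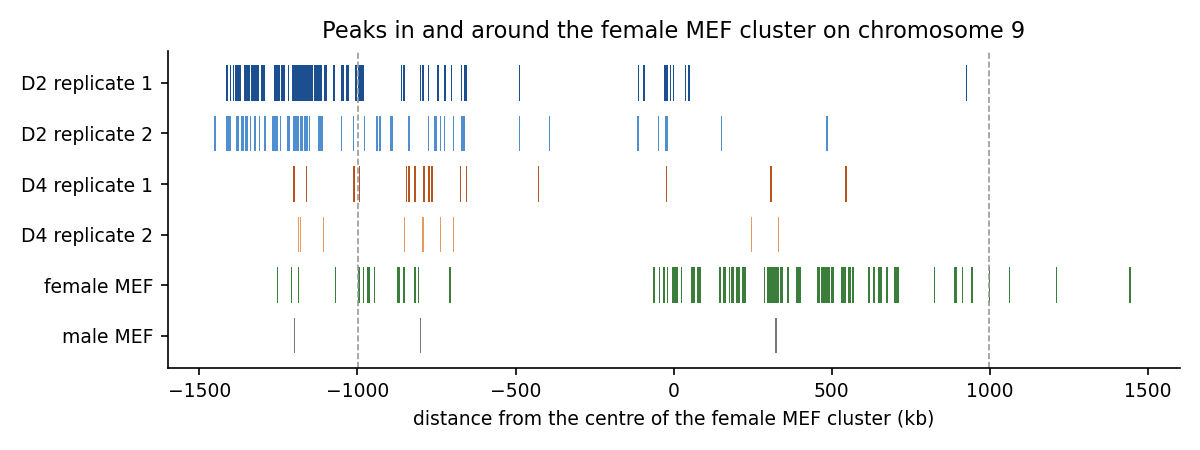
Peaks of each list (rows) as bars along the distance in kb from the centre of the stretch with most female MEF peaks (x axis); dashed lines mark its ends, and bars are drawn at least 4 kb wide. Female MEF peaks fill the right part of the stretch, where EpiLC peaks are few, and the D2 peaks crowd beyond its left end.

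Few of the female MEF peaks coincided with EpiLC peaks. Of the 44 in the stretch, 8 overlapped a D2 peak and 6 a D4 peak, and of the 40 elsewhere on the chromosome 20 overlapped a D2 peak. In all, 28 of 84 (33.3%) overlapped a D2 peak of either list, where the share over all autosomes was 45.4%. A D4 peak was overlapped by 12 (14.3%), where it was 23.9%. Seen from D2, 15 of 569 consensus regions (2.64%) overlapped a female MEF peak, where it was 6.96%. None of the 17 regions at least 3-fold enriched did. This share differed widely between chromosomes, from 0% to 29.2%, and chromosome 9 ranked 8 of 19. No segment was covered in all 5 female lists. Only 1 female MEF peak (1.19%, and 1.67% over all autosomes) overlapped a male peak. These values come from 1 library per sex and have no replicate check.

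The strongest female MEF peaks were at 45253802 to 45260905 (fold enrichment 3.45) and 45443116 to 45445007 (3.41). They were followed by 46611157 to 46614493 (3.31), 43434799 to 43434985 (3.30) and 48563783 to 48565337 (3.30). The first was also called in D2 replicate 1 (2.89) and D4 replicate 1 (2.97), the one at 43434799 in both D2 lists (2.71 and 2.95), and the other 3 in no other list. After the 38.4 kb peak named above, the longest were 37.9 kb at 46546780 to 46584715, 26.6 kb at 46718823 to 46745461, 19.5 kb at 46247374 to 46266891 and 16.5 kb at 46637263 to 46653750, all inside the stretch. The one at 46546780 overlapped a small peak of each D4 list (2.89 and 2.79) and held the male peak. These D4 peaks lay apart and did not overlap each other.

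The male MEF list, taken as the background of the capture in fibroblasts, was laid out otherwise. Its 21 peaks were short, with a median length of 813 bp, and 13 of them (61.9%) were under 1 kb, against 8 of 84 in female MEFs. In the 36.9 Mb nearest the centromere it held 8 peaks, where the female MEF list had 0, D4 replicates had 2 and 0, and D2 replicates had 35 and 27. The strongest was at 45050173 to 45050371 (3.88), called also in both D2 lists and in D4 replicate 1. The next were at 61728990 to 61729232 (3.84), inside the longest D2 domain, and at 11232227 to 11235615 (3.47), in a stretch with no female peak. Of the others among its first 10, those at 55282418 and 46572984 lay on female peaks, and those at 19389467, 25246675, 25262549, 25702758 and 28031988 did not.

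Of the 21 male peaks, 10 (47.6%) overlapped a D2 peak of either list, where the share over all autosomes was 41.0%, and 2 a D4 peak (9.52%, against 6.52%). Seen from D2, 7 of 569 consensus regions (1.23%) overlapped a male peak, the same as the 1.23% over all autosomes. So small a list can reach only a small part of the D2 regions.

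Gene names were not assigned to single peaks, because the gene table used here is on the build GRCm38.p6 and the peaks are on mm9. By the chromosome each gene is listed on, chromosome 9 carries 1201 protein-coding genes, or 9.93 per Mb of the peak extent, rank 6 of 19. Genes per Mb and mean D2 peak density correlated with r = 0.498 across the 19 autosomes (Spearman 0.498), and with r = 0.547 over the other 18 (Spearman 0.463). This is a description across chromosomes. Chromosomes 7, 11, 17, 19 and 2 carry more genes per Mb and had fewer D2 peaks per Mb.

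The chromosome carries genes with known parts in the epiblast and in early lineages. They include Tdgf1, a co-receptor for Nodal, Acvr2b, a receptor for activins, Smad3, which carries their signal to the nucleus, Ctnnb1 (beta-catenin), and Eomes, a transcription factor of early mesoderm and endoderm. Of gene lists drawn up with this chromosome in view, it holds 21 of 23 transcription factors of development, 16 of 19 signalling genes, 11 of 12 genes of the early embryo and chromatin (Dnmt1, the maintenance DNA methyltransferase, and Dppa5a, a marker of pluripotent cells, among them) and 15 of 15 genes of neural adhesion and channels. These lists were written mainly from genes known to lie on this chromosome, so the counts describe the lists only. Of gene families that lie in clusters, it holds 130 of 1110 olfactory receptor genes, 10 of 23 matrix metalloproteinase genes, 4 of 4 of the listed apolipoprotein genes, 10 of 13 listed chemokine receptor genes and 3 of 4 alpha-class glutathione transferase genes. Whether any of them lies under a peak was not analysed here.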

How the data were processed

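Chromatin captured with Xist was measured by RAP-seq in 6 pulldown libraries of 11 samples; the 5 inputs were not analysed here. Per the submitters' processing notes, the authors worked on build mm9 with MACS2 2.2.7.1, Bowtie2 2.2.9, Trim Galore 0.4.1, bedtools 2.26.0, SAMtools 1.9 and Picard; their settings, and the input behind each list, are not given in the sources used here. Fold enrichment was deposited as a ratio, on a linear scale. Each deposited peak also has a −log10 p and a score, which were not used here, and a −log10 q, used as a filter. Depth is unknown, so no counting interval is given for a peak.

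Coordinates are mm9, counted from 1. Peaks were assigned to 1 Mb blocks by their midpoint. Regions overlapped when they shared at least 1 bp, and consensus regions are segments covered in both lists of a day. Shares over all autosomes use the same start bound of 3.1 Mb. Python 3.11.15, numpy 2.4.6, pandas 2.3.3 and scipy 1.17.1 were used, and the overlap code was tested on simulated intervals. Median length and median fold enrichment were compared between days by exact permutation over libraries.

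Named regions are the 5 fullest D2 blocks, the 5 strongest and 5 longest consensus regions of each day, the 5 strongest and 5 longest female MEF peaks, and the first 10 male peaks. The part of that rule on genes under peaks could not be applied, since no mm9 annotation was used here, and the Vmn2r and Zfp families were not counted. The chromosome, the regions and the gene lists were chosen with earlier results of these data known. Replicate numbers were treated as pairs only as an alternative: the labels tie replicate 1 of both days to earlier data, but differences between replicates correlated between days with r = −0.18 and Spearman 0.14 over 122 blocks, which settles nothing. Alternatives were a stricter q or fold, joined peaks, a larger overlap, no start bound, other blocks, lists of equal number and leaving out each replicate.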

Additional observations from a re-analysis of the deposited data

How the results depend on the processing

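Peak calls here have modest enrichment, and depth is unknown, so counts follow each list's threshold. Of 69 alternative values, 41 stayed within a set spread or kept their direction, 27 moved and 1 reversed. The spread was the SD between replicates for the ratio of peaks (1.59) and the fullest block (1.41). It was a Wilson interval for shares and a set fold change for the count of consensus regions. Some values could not move. Dropping the start bound restored only male peaks, which none of these values uses, and the replicate block leaves the mean differences as they were. In what follows, the values are those for chromosome 9; the cause of each move was not tested, except that stricter settings leave fewer peaks.

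Keeping only peaks whose −log10 q reached 3, the D2 minus D4 difference in median length reversed to −223.0 bp, D2 consensus regions fell to 4, the share of D2 replicate 1 peaks overlapped by replicate 2 was 23.5%, the share of consensus regions seen at D4 was 50.0% and in female MEFs 0%, and the fullest block held a mean of 2 peaks; the ratio of D2 to D4 peaks was 7.0, and the difference in median fold −0.405 (exact permutation p = 0.333). Keeping only peaks enriched 3-fold or more, the ratio of D2 to D4 peaks was 3.45, with 17 consensus regions, 44.7% overlapped by replicate 2, 29.4% seen at D4, 0% in female MEFs and 5.50 peaks in the fullest block. With peaks closer than 10 kb joined, the ratio was 4.04, with 313 consensus regions, 23.0% seen at D4 and 24.0 peaks in the fullest block. With every female list limited to its 1020 strongest peaks, the ratio was 1.10, which the equal lengths bring close to 1 by construction, with 35 consensus regions, 32.0% overlapped by replicate 2, 37.1% seen at D4 and 0% in female MEFs. With an overlap of at least 50% of the shorter region, 44.7% of replicate 1 peaks were overlapped. The fullest block held 27.5 peaks at 500 kb, 70.0 at 2 Mb and 41.0 with shifted borders.

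Leaving out 1 library at a time, the share of D2 regions seen at D4 was 8.08% to 14.1%, the D2 regions, then the peaks of 1 list, numbered 761 to 797, the ratio was 5.09 to 7.64, the difference in median length 1408 to 1675 bp, that in median fold −0.20 to −0.0095, the share in female MEFs 2.01% to 2.76% and the fullest block 47.0 to 49.0 peaks. With the replicate block, the differences in median length (1541 bp) and in median fold (−0.10) equal the main ones by construction. Exact permutation gave p = 0.500 for both, the smallest that 2 pairs allow, so the block could change no call. The mean ratio of peaks was 6.33. Crossing the pairing gave a mean ratio of 6.39.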
